A study of Mus musculus with 31 samples.

Results

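Conventional type 1 dendritic cells (cDC1) of the steady-state mouse heart were compared with the CD11c-negative macrophages of the same organ, gene by gene, in 8 of the 31 RNA-seq libraries of the series. The cDC1 group holds the 4 libraries titled as cDC1 in the steady state (SS), replicates 1 to 4. The macrophage group holds the 4 SS libraries titled CD11cneg, which the labels describe both as macrophages and as monocyte-derived cells lacking CD11c. All hearts came from Balb/c mice of 8 to 12 weeks, and the labels name no engineered allele. Infarcted hearts (MI), in which the left anterior descending artery had been tied off permanently, gave 4 cDC1 and 4 macrophage libraries that are used at the end. SS cDC2 and CD11c-positive monocyte-derived cells (moDCs), with 4 libraries each, are set beside the comparison where their levels help to place a gene. The sources used here do not give the sort antibodies, the sex of the mice, the time after ligation or whether hearts were pooled.

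cDC1 are short-lived antigen-presenting cells that arise from bone-marrow precursors under the cytokine Flt3 ligand and depend on the transcription factors IRF8, BATF3 and ID2. They take up dead cells, move the antigens onto MHC class I for CD8 T cells, a route called cross-presentation, and carry them to lymph nodes by way of the receptor CCR7. Cardiac macrophages depend on CSF1 receptor signalling, stay in the tissue, and are known for complement, for clearing dying cells and mitochondria of cardiomyocytes, and for iron and lipid handling. In bulk libraries of sorted cells, fewer cells expressing a gene and less RNA per cell cannot be told apart.

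Reads assigned to genes numbered 9947340 to 16531349 in the cDC1 libraries and 9571370 to 10604986 in the macrophage libraries. cDC1 replicate 1 was the deepest with the fewest genes detected (11747, against 12986 to 13754 in the macrophages). Reads in no feature made up 14.92% and 11.92% in cDC1 replicates 1 and 4 and 8.503% and 8.391% in replicates 2 and 3. They made up 15.24% and 16.91% in macrophage replicates 1 and 4 against 9.121% and 9.26% in replicates 2 and 3. Summed transcripts of 10 mural cell markers came to 102 to 348 CPM (read counts scaled to library depth with TMM factors) in cDC1 and 14.5 to 56.1 CPM in macrophages. Those of 12 endothelial markers came to 90.4 to 309.5 CPM in cDC1 and 52.0 to 110.7 CPM in macrophages. cDC1 replicate 2 was the highest for both, and all markers of both lists had reads in both groups. Neutrophil markers summed to 3.61 to 9.10 CPM in cDC1, with Mmp8 and Camp at 0, and 122 to 250.4 CPM in macrophages with Camp at 0, where the receptor gene Csf3r made up the most. Cardiomyocyte markers summed to 20.7 to 41.4 CPM in cDC1 and 155 to 223 CPM in macrophages. B cell markers came to 7.99 to 18.4 CPM in cDC1 (Pax5 and Blk at 0) and 28.9 to 52.5 CPM in macrophages (Pax5 at 0), and NK cell markers came to 27.3 to 67.9 CPM in cDC1 and 5.49 to 25.1 CPM in macrophages. Fibroblast markers summed to 883 to 1056 CPM in cDC1 and 516 to 602 CPM in macrophages, most of it Gsn. T cell markers came to 5.35 to 17.4 CPM in cDC1 and 6.10 to 19.3 CPM in macrophages. Plasmacytoid dendritic cell markers came to 74.7 to 81.8 CPM in cDC1 and 123 to 188 CPM in macrophages, most of it Tcf4. Mast cell markers came to at most 6.79 CPM in cDC1 and 2.19 CPM in macrophages, with Ms4a2, Mcpt4 and Mcpt8 at 0, and the globin genes had no read in any of the 8 libraries. The part of such transcripts in the gene results was not tested.

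The populations carried their labels in the genes that define them. Values below are mean CPM ± SD with n = 4 libraries in each group, or single libraries in the order of replicates 1 to 4. Folds and adjusted p come from edgeR's quasi-likelihood test with Benjamini-Hochberg adjustment over 13039 genes. Xcr1, the receptor for the chemokine XCL1 and the most specific surface marker of cDC1, had 923, 789, 1039.8 and 888 CPM in cDC1 and 1.62, 0.883, 0.963 and 2.43 CPM in macrophages. Clec9a, a receptor for exposed actin on dead cells, had 201, 182, 195 and 173 CPM in cDC1 and 0, 0.392, 0.482 and 0 CPM in macrophages. Itgae, coding for the integrin CD103, had 615, 668, 852 and 871 CPM in cDC1 and 0.477, 0, 0.385 and 0.0971 CPM in macrophages. No macrophage library reached 3 CPM for any of these 3 genes, and the groups lay far apart. In the other direction Csf1r, the receptor on which macrophages depend, had 53.6, 57.8, 82.6 and 62.4 CPM in cDC1 and 6954, 4665, 5539 and 6778 CPM in macrophages. Itgax, which codes for CD11c itself and so partly defines the gates, had 213, 262, 272 and 284 CPM in cDC1 and 11.3, 5.197, 5.298 and 8.16 CPM in macrophages. Because the antibodies are unknown, some of these genes may have served for the sort, and their differences are given as a check of the labels.

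**Figure D1:**
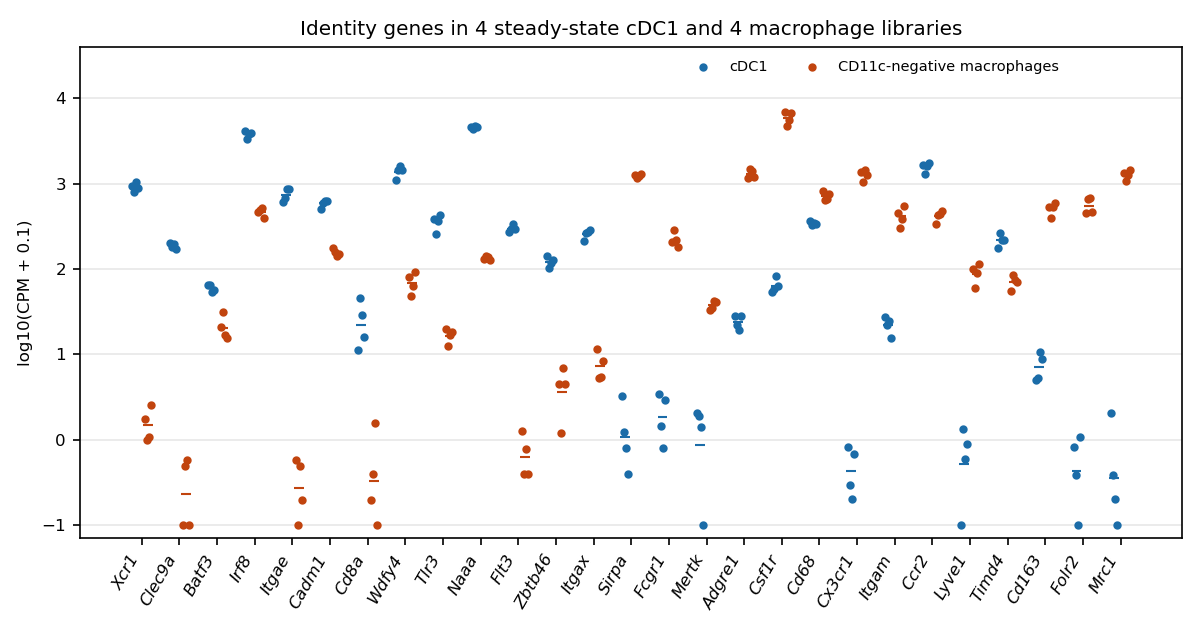
Points are log10(CPM + 0.1) of 27 identity genes in the 4 SS cDC1 libraries (blue, left in each pair) and the 4 SS macrophage libraries (orange, right), and short lines are means of the plotted values. Genes from Xcr1 to Itgax are higher in cDC1, most macrophage genes are lower there, and Ccr2 and Timd4 stand higher in cDC1.

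All 21 tested members of a cDC1 identity list were higher in cDC1, and 17 of 18 members of a list of genes shared by conventional dendritic cells. The share of all tested genes called higher was 20.9%, that called lower 21.9% and that called in either direction 42.8%. A call alone therefore says little about a gene here, and the sizes below carry the description. The lists here and below were chosen with earlier results of these data known. Their counts are descriptions and no independent check of the labels. Members of the lists that the naming rule does not pick were chosen after their values were seen, here and below. Naaa, a lysosomal amidase, was higher in every cDC1 library than in any macrophage library, and Wdfy4, required for cross-presentation of cell-bound antigen, was 19.8-fold higher (1396 ± 220.4 CPM in cDC1 and 70.5 ± 19.1 CPM in macrophages, adjusted p = 8.22e-16). Ppt1, a lysosomal thioesterase, was 10.9-fold higher, and the junctional adhesion gene Amica1 10.4-fold. Flt3, the receptor of the cytokine on which dendritic cells depend, had 268, 294, 337 and 292 CPM in cDC1 and 1.14, 0.294, 0.674 and 0.291 CPM in macrophages, a 484-fold difference (adjusted p = 2.08e-17). Zbtb46, a transcription factor limited to conventional dendritic cells among myeloid cells, had 143, 102, 117 and 126 CPM in cDC1 and 4.39, 1.08, 6.84 and 4.37 CPM in macrophages (29.2-fold, adjusted p = 1.72e-15). Both were at low but measurable levels in macrophages, and the groups did not overlap. Cadm1, an adhesion molecule used to gate cDC1, showed a smaller gap of 3.79-fold (586 ± 57.1 CPM in cDC1 and 155 ± 15.7 CPM in macrophages, adjusted p = 1.63e-10). Batf3, the factor whose loss removes cDC1, was 2.87-fold higher (60.1 ± 5.81 and 20.9 ± 7.26 CPM, adjusted p = 8.97e-08). Cd8a, a marker of the lymphoid-organ cDC1, was low and uneven in cDC1 at 10.995, 45.2, 28.7 and 15.9 CPM, with 0.0953, 0.294, 1.44 and 0 CPM in macrophages (53.5-fold, adjusted p = 0.000117, and 178-fold without macrophage replicate 3). The Clec9a fold of 818 became 1334-fold without macrophage replicate 3. Of the shared dendritic list, Adam19 did not pass (89.1 ± 13.9 CPM in cDC1 and 82.5 ± 19.4 CPM in macrophages, adjusted p = 0.746).

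All 20 tested members of a monocyte and macrophage identity list were lower in cDC1, with a median log2 fold change of -4.56 against -0.02 over all tested genes. Cx3cr1, the fractalkine receptor, had 0.721, 0.1896, 0.0992 and 0.585 CPM in cDC1 and 1356, 1044, 1449.9 and 1264 CPM in macrophages (2859-fold lower, adjusted p = 5.64e-22). Adgre1, coding for the F4/80 antigen, had 28.1, 21.99, 18.9 and 27.9 CPM in cDC1 and 1163, 1492, 1401 and 1178 CPM in macrophages (53.9-fold lower). Sirpa, the receptor of the "do not eat me" signal CD47, was 833-fold lower (1.31 ± 1.26 CPM in cDC1 and 1234 ± 61.1 CPM in macrophages, 1706-fold without cDC1 replicate 1). Msr1, a scavenger receptor of modified lipoproteins, was 572-fold lower. Fcgr1 and Mertk, the CD64 and MerTK genes by which macrophages are usually told from dendritic cells, were 104-fold and 28.8-fold lower (adjusted p = 9.67e-15 and 3.56e-08). Cd68, a lysosomal glycoprotein often used to stain macrophages, differed least of the list, by 2.0998-fold (341 ± 16.2 CPM in cDC1 and 716 ± 83.7 CPM in macrophages, adjusted p = 3.88e-10). Of 25 tested genes of resident cardiac macrophages, 23 were lower in cDC1. Folr2, a folate receptor, and Mrc1, the mannose receptor CD206, were 1054-fold and 1750.3-fold lower (9041-fold without cDC1 replicate 1 for Mrc1), and F13a1, the coagulation factor XIII chain, 574-fold. Lyve1, a hyaluronan receptor of perivascular macrophages, had 0.627 ± 0.516 CPM in cDC1 and 90.3 ± 22.96 CPM in macrophages (152-fold lower, 233-fold without cDC1 replicate 2).

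Not every gene followed its list. Timd4, a phosphatidylserine receptor that marks long-lived resident macrophages, had 178, 265, 219 and 219 CPM in cDC1 and 55.5, 85.02, 74.1 and 69.2 CPM in macrophages and was 3.102-fold higher in cDC1 (adjusted p = 8.56e-05). Every cDC1 library lay above every macrophage library. Cd207, the lectin langerin, had 376, 359, 374 and 354 CPM in cDC1 and 413, 593, 350.2 and 539.9 CPM in macrophages, the groups overlapped, and the test did not pass (adjusted p = 0.412). Ccr2, the receptor by which monocytes leave the bone marrow and which separates recruited from resident macrophages, had 1668, 1289, 1616 and 1761 CPM in cDC1 and 332, 423, 445 and 481 CPM in macrophages (3.77-fold higher in cDC1, adjusted p = 1.39e-13). Of 13 tested classical monocyte genes, 5 were higher in cDC1, 6 were lower and 2 did not pass. Also higher were the integrin gene Itgal (291, 327, 316 and 322 CPM in cDC1 and 126, 93.8, 75.5 and 196 CPM in macrophages), Plac8 (3.51-fold, not passing without cDC1 replicate 1 (0.0559) or macrophage replicate 1 (0.0602)) and the aspartic protease gene Napsa (60.2-fold). Ly6c2, the antigen by which classical monocytes are gated, was low in both groups (3.58 ± 0.899 CPM in cDC1 and 6.66 ± 1.49 CPM in macrophages, adjusted p = 0.323). Chil3, a chitinase-like protein, had no read in cDC1 and 2.13 ± 0.851 CPM in macrophages. Of 16 genes of cDC2, 5 were higher in cDC1, 6 lower and 5 did not pass, and the lectin gene Clec10a was 58.5-fold lower.

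Over all 13039 tested genes, 2720 were higher in cDC1 and 2860 lower. A change of 2-fold or more was seen in 3233 genes (24.8%), 1311 higher (10.1%) and 1922 lower (14.7%). The 4 and 4 libraries did not overlap for 4950 genes (38%). Of the 5580 called genes, 3912 (70.1%) were called again in the same direction with only cDC1 and macrophage replicates 1 and 4. With only their replicates 2 and 3 it was 3701 (66.3%), and none was called in the opposite direction in either subset. The subsets are parts of the libraries that gave the calls, so this is no independent check. All other groups of the series stayed whole in these fits. Beside the genes for which it is stated at their values, Acta2, Ccnb2, Csf2rb, Esam, Fos, H2-K1, Jam3, Ly6e, Pecam1, Plac8 and Ticam1 did not pass within replicates 1 and 4 (adjusted p between 0.0504 and 0.743). Ccnb2, Ccr9, Cd86, Esam, H2-K1, Il18, Jam3, Ly6e, Mcm5, Plac8, Slc2a1, Tgfb1 and Ticam1 did not pass within replicates 2 and 3 (between 0.058 and 0.277). The genes with the most reads among those higher in cDC1 were Cst3 (the cysteine protease inhibitor cystatin C, 22950.3 ± 2173 CPM in cDC1 and 5724 ± 1181 CPM in macrophages, 4.01-fold), Tmsb4x (thymosin beta 4, an actin-binding peptide, 2.09-fold), Actb (2.29-fold), Psap and H2-Ab1. Among those lower in cDC1 they were Apoe (23.7 ± 7.79 CPM in cDC1 and 19863 ± 3540.5 CPM in macrophages, 833-fold), Lyz2 (lysozyme, 12.1-fold, which shares sequence with Lyz1), Sepp1 (selenoprotein P, 106-fold), Ftl1 (ferritin light chain, 2.45-fold) and the cathepsin gene Ctsb (8.94-fold).

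**Figure D2:**
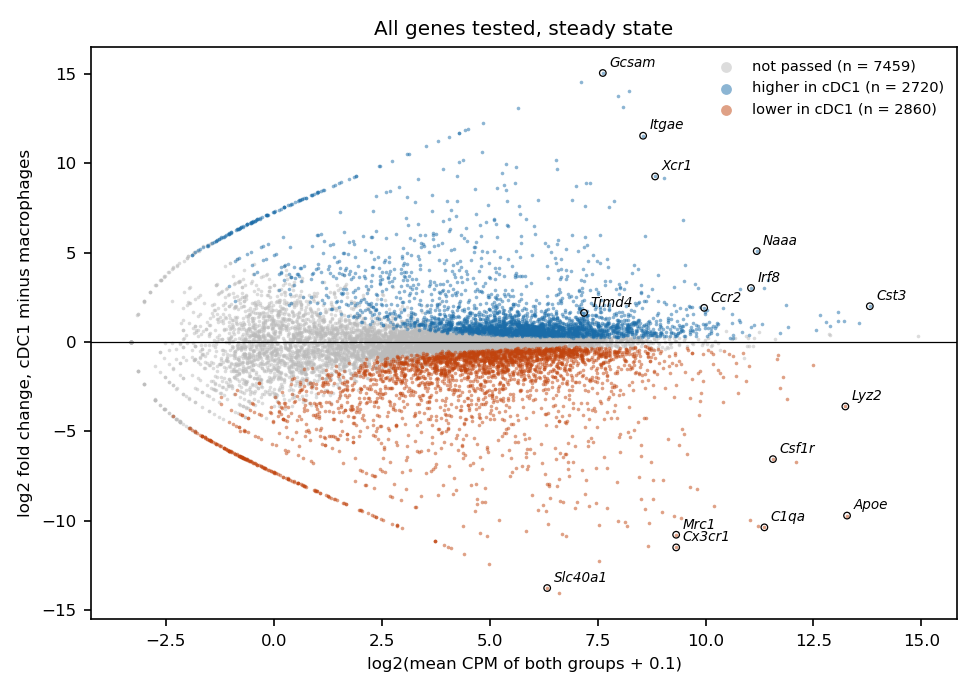
Each point is 1 of 13039 tested genes, with log2(mean CPM of both groups + 0.1) on the x axis and the fitted log2 fold change, cDC1 minus macrophages, on the y axis; blue points are higher and orange points lower in cDC1 at adjusted p under 0.05. The curved edges are genes with no read in 1 of the groups, whose fitted fold change depends on the prior count of the model.

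The largest differences were between expressed and unread. Gcsam, a B-cell and dendritic cell signalling adaptor, had 433, 328, 363 and 449 CPM in cDC1 and no read in any macrophage library (at least 5493-fold higher, computed against 3 reads over the group). Sept3, a septin, had 494, 644, 670.2 and 591 CPM in cDC1 and 1 read in macrophages (24218-fold by summed reads with an exact 95% interval of 4346 to 956609, and at least 6082-fold without macrophage replicate 2). The tight-junction gene Cldn1 had 418, 463, 543 and 569.9 CPM in cDC1 and 1 read in macrophages (20163-fold by summed reads with an exact 95% interval of 3618 to 796418, and at least 5017-fold without macrophage replicate 1), and Btla, an inhibitory receptor that binds HVEM, 506, 529, 563 and 586 CPM and 2 reads (11175-fold by summed reads with an exact 95% interval of 3093 to 92279.7, and at least 5613-fold without macrophage replicate 2). The omega-3 fatty acid receptor gene Ffar4 (100.9 ± 12.4 CPM, at least 1368-fold), the C-type natriuretic peptide gene Nppc (57.3 ± 24.1 CPM, at least 795-fold) and the bile acid enzyme gene Cyp8b1 (42.8 ± 7.87 CPM, at least 601-fold) also had reads in all 4 cDC1 libraries and none in macrophages. The same held for the calcium channel gene Cacna1s (32.8 ± 5.25 CPM, at least 465-fold) and the integrin gene Itga3 (17.3 ± 5.15 CPM, at least 225-fold), and for Proser2, Wdr86, Ccser1 and Gramd2. In cDC2 and moDCs Gcsam averaged 2.84 and 1.02 CPM, Cyp8b1 0.0468 and 0 CPM and Btla 31.2 and 7.39 CPM. The cytochrome P450 gene Cyp2s1 had 56.4 ± 2.61 CPM in cDC1 and 0.0243 ± 0.0486 CPM in macrophages (2313-fold by summed reads with an exact 95% interval of 415 to 91405, and at least 579-fold without macrophage replicate 4). In the other direction Prune2 had no read in cDC1 and 155, 181, 239 and 207 CPM in macrophages (at least 3097-fold lower, and at least 2013-fold without cDC1 replicate 1). Siglec1, the sialic acid receptor CD169, had 0.0744 ± 0.149 CPM in cDC1 and 424, 236, 323 and 487 CPM in macrophages (lower 5830.04-fold by summed reads with an exact 95% interval of 1995 to 28274, and 3788-fold without cDC1 replicate 1). Trem2, a lipid-sensing receptor, had 0.123 ± 0.147 CPM in cDC1 and 218 ± 29.99 CPM in macrophages (1852-fold lower, 4058-fold by summed reads without cDC1 replicate 4). Agmo, which cleaves ether lipids, Epor, the erythropoietin receptor, and Gpr165 had no read in cDC1 and 42.2 ± 6.54, 32.7 ± 4.14 and 26.2 ± 3.42 CPM in macrophages (at least 668-fold, at least 517-fold and at least 416-fold lower). Without cDC1 replicate 1 these bounds were at least 434-fold, 336-fold and 270.3-fold, since a bound shrinks with the reads counted. The fatty acid transporter gene Slc27a6 and the myosin gene Myo7a had 0 ± 0 and 0.0248 ± 0.0496 CPM in cDC1 and 26.3 ± 1.87 and 60.9 ± 18.6 CPM in macrophages. Fcrls, an Fc receptor-like scavenger gene, was 2658-fold lower (0.295 ± 0.347 CPM in cDC1 and 814 ± 62.2 CPM in macrophages, 4761-fold without cDC1 replicate 4).

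Promoter windows of genes at the ends of the comparison are shown because they stand for the programmes that separated the groups. Xcr1 and Zbtb46 stand for the dendritic side, and the neighbours C1qb and C1qc, 2 chains of the complement initiator C1q, stand for the macrophage side. They come from RefSeq on GRCm38.p6 and run from 250 bases before to 50 bases after the start, 5′ to 3′ on the gene's strand. Capitals mark matches on either strand to a PU.1 motif (GAGGAAGT), an AP-1 motif (TGANTCA), a MAF core site (TGCTGAC) or an interferon-stimulated response motif. The windows are chr9:123861980-123862279 for Xcr1, chr2:181424339-181424638 for Zbtb46, chr4:136886151-136886450 for C1qb and chr4:136892865-136893164 for C1qc, all on the minus strand.
Xcr1: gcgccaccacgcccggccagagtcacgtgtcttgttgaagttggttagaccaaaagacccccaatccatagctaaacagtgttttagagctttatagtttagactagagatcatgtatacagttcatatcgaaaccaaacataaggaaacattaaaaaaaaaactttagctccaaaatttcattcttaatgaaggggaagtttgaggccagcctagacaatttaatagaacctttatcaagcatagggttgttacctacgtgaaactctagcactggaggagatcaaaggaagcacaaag
Zbtb46: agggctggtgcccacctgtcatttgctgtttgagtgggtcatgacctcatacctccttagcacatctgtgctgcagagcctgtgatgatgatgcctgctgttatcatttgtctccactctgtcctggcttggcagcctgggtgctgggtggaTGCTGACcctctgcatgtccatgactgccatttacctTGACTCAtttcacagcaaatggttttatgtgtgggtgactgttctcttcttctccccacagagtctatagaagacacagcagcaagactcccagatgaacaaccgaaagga
C1qb: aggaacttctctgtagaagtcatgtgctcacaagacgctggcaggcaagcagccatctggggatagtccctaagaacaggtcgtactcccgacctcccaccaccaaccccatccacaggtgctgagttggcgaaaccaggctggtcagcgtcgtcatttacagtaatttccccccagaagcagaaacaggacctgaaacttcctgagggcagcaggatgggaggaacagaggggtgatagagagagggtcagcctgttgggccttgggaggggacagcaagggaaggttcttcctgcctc
C1qc: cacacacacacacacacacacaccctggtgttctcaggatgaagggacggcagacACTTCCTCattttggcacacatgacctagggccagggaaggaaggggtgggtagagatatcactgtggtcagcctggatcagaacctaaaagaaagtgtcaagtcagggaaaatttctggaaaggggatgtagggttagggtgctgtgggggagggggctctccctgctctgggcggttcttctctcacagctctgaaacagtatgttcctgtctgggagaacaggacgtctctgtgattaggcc
Zbtb46 held 1 MAF core site and 1 AP-1 motif and C1qc held 1 PU.1 motif, while the letters searched were in neither of the other windows. The annotated start in the Zbtb46 window directly follows ttcttctccccacag, letters like those at the end of an intron. Both Zbtb46 matches lie before that start and may be in an intron rather than a promoter, which was not tested. Of 32851 RefSeq windows, the PU.1 motif was in 3.2%, the interferon-stimulated response motif in 3.44%, the AP-1 motif in 7.81% and the MAF core site in 4.67%. Of 12659 windows of tested genes, these shares were 3.34%, 3.24%, 5.25% and 3.82%. Of 1264 windows of genes at least 2-fold higher in cDC1, they were 5.14%, 4.03%, 7.28% and 4.11%, and of 1918 windows of genes at least 2-fold lower they were 3.7%, 4.43%, 6.05% and 4.69%. A match describes the letters of a window and is not a binding site.

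Lineage transcription factors differed in both directions. Of 34 tested lineage factors, 17 were higher in cDC1, 13 were lower and 4 did not pass. Irf8, the factor that commits precursors to cDC1, had 4169, 3354, 3759 and 3862 CPM in cDC1 and 463, 493, 517 and 391 CPM in macrophages (8.12-fold higher, log2 fold change 3.02 ± 0.14 SE, adjusted p = 3.24e-18). The macrophage level was far from 0, and the groups did not overlap. Id2, an inhibitor of E proteins, was 3.83-fold higher (1496 ± 162 CPM in cDC1 and 390.4 ± 82.2 CPM in macrophages), Cbfa2t3, a co-repressor that acts on Irf8 in mouse precursors, 6.04-fold, and the fetal globin repressor gene Bcl11a 107-fold. Zfp366, also called DC-SCRIPT, was 73.5-fold higher (32.9 ± 3.199 CPM in cDC1 and 0.438 ± 0.601 CPM in macrophages, 192-fold without macrophage replicate 2). Ahr, the aryl hydrocarbon receptor, and Notch2 were 2.91-fold and 2.696-fold higher. Lower in cDC1 were Maf (556-fold, at least 1868-fold without cDC1 replicate 4), Zeb2 (0, 3.32, 1.09 and 0.975 CPM in cDC1 and 254, 134, 203 and 318 CPM in macrophages, 182-fold, 378-fold without cDC1 replicate 2) and Cebpa (4.06-fold). So were Cebpb (19.2-fold), Spic (68.9-fold, 113-fold without cDC1 replicate 2), which iron-recycling macrophages need, and the liver X receptor gene Nr1h3 (17.5-fold). Zeb2 is a repressor whose loss favours cDC1 over other myeloid fates in mice. Irf4, a cDC2 factor, was 3.003-fold lower in cDC1. Spi1, the gene of the myeloid master factor PU.1, had 468, 456, 489 and 445 CPM in cDC1 and 547, 523, 463 and 479 CPM in macrophages, the groups overlapped and the test did not pass (adjusted p = 0.388). Relb, a factor of mature dendritic cells, was 1.89-fold higher (adjusted p = 0.0111) but did not pass without cDC1 replicate 2 (0.0858), nor within replicates 1 and 4 (adjusted p = 0.488). Nr4a1 was 1.77-fold higher with all replicates (adjusted p = 0.00293) and did not pass within replicates 1 and 4 (adjusted p = 0.0939).

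Antigen presentation genes of both MHC classes were more often higher than lower in cDC1, and the genes of the H2-O chains stood out by size. Of 16 tested class II genes, 12 were higher in cDC1, 2 lower and 2 did not pass. H2-Ab1, a chain of the classical molecule I-A, had 13076, 12247, 11527 and 10853 CPM in cDC1 and 5502, 7167, 4059 and 4338 CPM in macrophages (2.26-fold higher, adjusted p = 1.83e-07). H2-Oa, a chain of H2-O, which restrains the loading factor H2-M, had 112, 92.2, 99.04 and 81.004 CPM in cDC1 and 0, 0, 0.771 and 0 CPM in macrophages, so only 1 macrophage library held reads (469-fold higher, and at least 1015-fold without macrophage replicate 3). Its partner H2-Ob had 220.3, 232, 246 and 249 CPM in cDC1 and 23.9, 48.6, 25.1 and 28.5 CPM in macrophages (7.51-fold higher, adjusted p = 2.67e-14). Ciita, the master regulator of class II, and H2-DMb2, a chain of H2-M, were 2.88-fold and 3.01-fold higher. Cd74, the invariant chain, had 32705, 38447, 33992 and 33387 CPM in cDC1 and 34883, 28222, 18388 and 27150.2 CPM in macrophages and did not pass (adjusted p = 0.0929), though it passed as higher without macrophage replicate 1 (0.0236) and within replicates 2 and 3 (0.0396). The members lower in cDC1 were both proteases, Ctss, which trims the invariant chain (547 ± 42.02 CPM in cDC1 and 2156 ± 468 CPM in macrophages, 3.94-fold), and Lgmn, the asparaginyl endopeptidase (40.4 ± 13.9 and 1401 ± 150.01 CPM, 34.8-fold). Reads of the H2 genes are uncertain to the extent that Balb/c alleles differ from the reference strain.

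Of 23 tested class I and cross-presentation genes, 16 were higher in cDC1, 2 were lower and 5 did not pass. Genes of peptide supply were among the higher ones. Psmb9, a subunit of the immunoproteasome, had 733, 630.1, 619 and 562 CPM in cDC1 and 75.2, 116, 103 and 74.3 CPM in macrophages (6.91-fold, adjusted p = 2.19e-16), and Psmb8 was 3.998-fold higher. Tap1, of the transporter that brings peptides into the endoplasmic reticulum, had 550.3, 567, 646 and 553 CPM in cDC1 and 115, 130.2, 135 and 102 CPM in macrophages (4.799-fold, adjusted p = 1.97e-17), and its partner Tap2 was 4.06-fold higher. Rab43, a GTPase that acts in cross-presentation by mouse dendritic cells, was 4.98-fold higher (792 ± 50.5 CPM in cDC1 and 159 ± 3.72 CPM in macrophages). H2-K1, a presenting chain, was 1.27-fold higher (adjusted p = 0.0368), a call lost without any of cDC1 replicate 2 (0.125), cDC1 replicate 3 (0.0952), macrophage replicate 1 (0.0624), macrophage replicate 3 (0.0617) or macrophage replicate 4 (0.119), and H2-D1 (1653 ± 199.9 CPM in cDC1 and 1481 ± 183 CPM in macrophages) and B2m (2059 ± 305 and 2357 ± 264 CPM) did not pass. Cybb, the catalytic subunit of the phagosomal NADPH oxidase, had 14.96, 18.2, 21.7 and 23.3 CPM in cDC1 and 1628, 1435, 1434 and 1549 CPM in macrophages (77.6-fold lower, adjusted p = 4.97e-23). The groups lay far apart in every library. The chaperone gene Canx was 1.28-fold lower and did not pass within replicates 2 and 3 (adjusted p = 0.134).

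**Figure D3:**
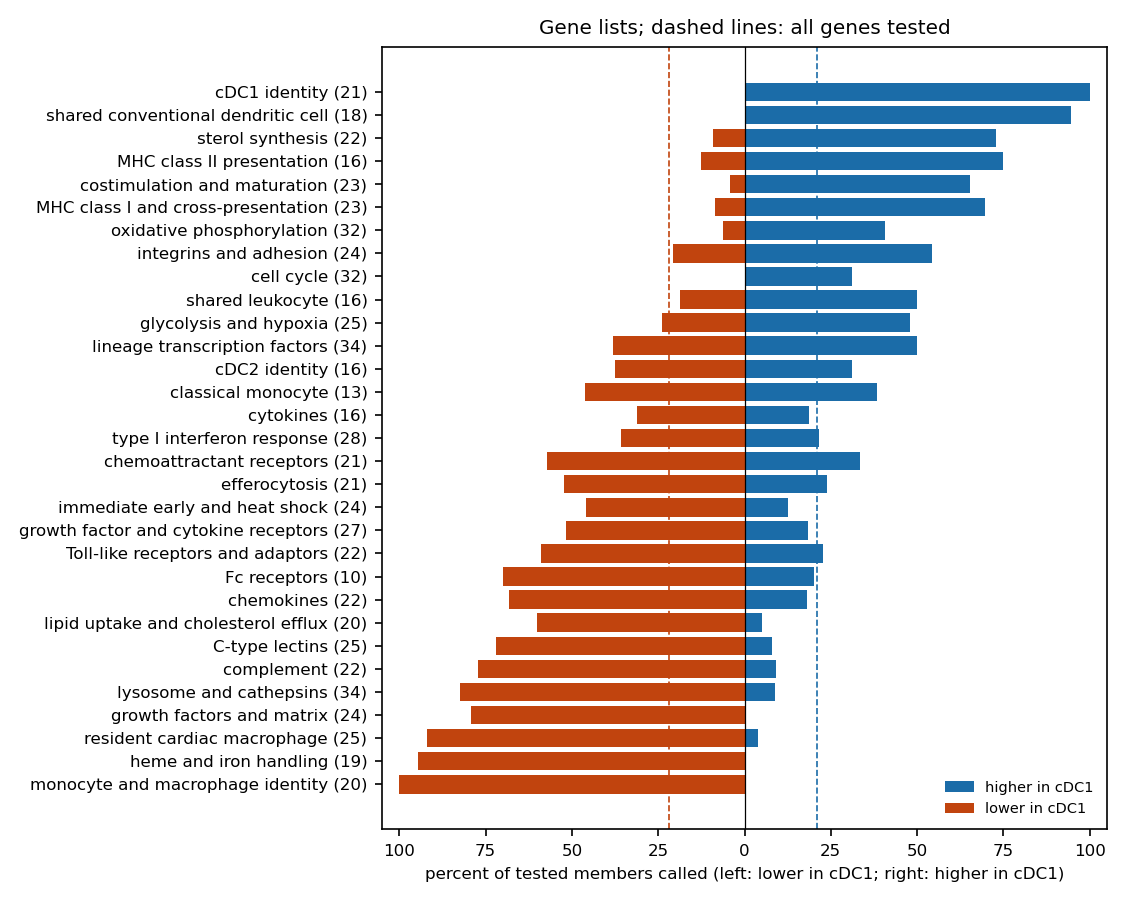
Bars give the percent of tested members of each of 31 gene lists called higher in cDC1 (blue, to the right) or lower (orange, to the left), with the number of tested members after each name. Dashed lines are the shares over all tested genes, 20.9% higher and 21.9% lower, and the lists run from cDC1 identity at the top, all higher, to monocyte and macrophage identity at the bottom, all lower.

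For the lists of cytokines, Toll-like receptors, efferocytosis, Fc receptors, chemokines, growth factor and cytokine receptors and type I interferon response, the share called higher was 18.2% to 23.8%, near that of all tested genes. For integrins and adhesion, glycolysis and hypoxia, and shared leukocyte genes, the share called lower was 18.75% to 24%, likewise near it. Counts on those sides say nothing particular about these lists. On the other side, the lists named first had 31.25% to 70% of members called lower, against 21.9% of all tested genes. The lists named second had 48% to 54.2% called higher, against 20.9%.

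Genes of dendritic cell maturation were higher in cDC1 but uneven among its libraries. Of 23 tested genes of costimulation and maturation, 15 were higher in cDC1, 1 was lower and 7 did not pass. Ccr7, the receptor that guides dendritic cells to lymph nodes, had 211, 844, 525 and 149.9 CPM in cDC1 and 0, 3.92, 1.83 and 3.496 CPM in macrophages (187-fold, adjusted p = 1.24e-06). Fscn1, an actin-bundling protein of migrating dendritic cells, had 119, 504, 348 and 89.8 CPM in cDC1 and 29.8, 23.1, 23.1 and 22.9 CPM in macrophages (10.7-fold, adjusted p = 0.00188). Il12b, the p40 chain of interleukin 12, had 26.4, 138, 84.6 and 23.8 CPM in cDC1 and 0.858, 1.37, 0 and 0.0971 CPM in macrophages (115-fold, adjusted p = 2.09e-05, 75.8-fold without cDC1 replicate 2 and 205-fold without macrophage replicate 2). In all 3 genes cDC1 replicate 2 was the highest, replicate 3 came next and replicates 1 and 4 were lowest, the same replicates that differed in reads outside features. Within replicates 1 and 4 Ccr7 was 104-fold higher (adjusted p = 0.00118) and within replicates 2 and 3 237-fold (adjusted p = 0.000159). Fscn1 was 3.98-fold higher within replicates 1 and 4, without passing (adjusted p = 0.209), and 18.4-fold within replicates 2 and 3 (adjusted p = 0.0153). Il12b was 51.3-fold (adjusted p = 0.00816) and 160.5-fold (adjusted p = 0.00143). Ccl22, a chemokine of mature dendritic cells that draws regulatory T cells, was 429-fold higher (254 ± 159 CPM in cDC1 and 0.587 ± 0.934 CPM in macrophages, 1815-fold without macrophage replicate 2), and its relative Ccl17 was also higher (1706-fold by summed reads with an exact 95% interval of 306 to 67411, and at least 424-fold without macrophage replicate 1). Cd86 was even among cDC1 libraries at 465, 463, 466 and 455 CPM, with 293, 333, 303 and 245 CPM in macrophages (1.57-fold, adjusted p = 0.00171), and Cd40 and the signalling adaptor gene Traf1 were 2.62-fold and 16.2-fold higher. Cd80, the other ligand of CD28 (15.7 ± 4.29 CPM in cDC1 and 11.98 ± 1.23 CPM in macrophages, adjusted p = 0.229), Cd83 and Il15 did not pass. Cd274, coding for PD-L1, and Cd200, an inhibitory ligand, were 4.496-fold and 15.8-fold higher. Marcksl1, the only member lower, was 2.21-fold lower and did not pass within replicates 2 and 3 (adjusted p = 0.37).

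Of 16 tested cytokine genes, 3 were higher in cDC1, 5 lower and 8 did not pass. The higher ones beside Il12b were Il6 (2.82-fold, adjusted p = 0.0182, and 5.17-fold without macrophage replicate 4) and Il18 (1.62-fold, adjusted p = 0.0194), and neither held in every subset. Il6 did not pass without any of cDC1 replicate 2 (0.0517), cDC1 replicate 4 (0.0834), macrophage replicate 1 (0.0663), macrophage replicate 2 (0.0654) or macrophage replicate 3 (0.0586), and Il18 did not pass without any of cDC1 replicate 2 (0.0761), macrophage replicate 1 (0.0593), macrophage replicate 3 (0.0578) or macrophage replicate 4 (0.0592). Within replicates 1 and 4 neither passed (adjusted p = 0.406 for Il6 and 0.0693 for Il18). Il6 overlapped between the groups at 1.502, 9.101, 6.05 and 11.2 CPM in cDC1 and 1.24, 1.08, 1.64 and 5.83 CPM in macrophages. Lower in cDC1 were Tnf (45.4, 43.99, 38.8 and 52.2 CPM in cDC1 and 182, 151, 107 and 138 CPM in macrophages, 3.199-fold, adjusted p = 1.2e-07) and the IL-6 family gene Osm (2.75 ± 1.73 and 51.2 ± 4.23 CPM, 18.3-fold). The receptor antagonist gene Il1rn (24.9-fold, 38.8-fold without cDC1 replicate 2) and Tgfb1 (1.496-fold) were lower as well. The anti-inflammatory Il10 had 2 reads in cDC1 and 3.34, 11.6, 6.16 and 9.91 CPM in macrophages (183-fold by summed reads with an exact 95% interval of 50.3 to 1519.8, and 119-fold without cDC1 replicate 1 and at least 96.3-fold without cDC1 replicate 3). Il1b was high in both groups and did not pass (753 ± 188 CPM in cDC1 and 707 ± 188 CPM in macrophages, adjusted p = 0.74).

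The groups differed in which innate sensors they carried. Of 22 tested Toll-like receptor (TLR) and adaptor genes, 5 were higher in cDC1, 13 lower and 4 did not pass. Tlr3, the endosomal receptor of double-stranded RNA, had 385, 257, 359 and 426 CPM in cDC1 and 19.6, 12.5, 16.7 and 17.9 CPM in macrophages (21.4-fold, adjusted p = 8.7e-12). Tlr11, a receptor of protozoan profilin in mice, had 433, 306, 324 and 415 CPM in cDC1 and 6.198, 4.02, 8.48 and 4.47 CPM in macrophages (63.6-fold, adjusted p = 5.98e-14), and its partner Tlr12 was 3.67-fold higher. Ticam1, the adaptor of TLR3, was 1.57-fold higher (adjusted p = 0.0329), a call lost without any of cDC1 replicate 3 (0.104), cDC1 replicate 4 (0.0627), macrophage replicate 2 (0.09) or macrophage replicate 4 (0.144), and Cd180 was 4.41-fold higher. Tlr7, the endosomal receptor of single-stranded RNA, had 0, 1.04, 0 and 0.7798 CPM in cDC1 and 171, 193, 220.3 and 202 CPM in macrophages (467-fold lower, 847-fold without cDC1 replicate 2). Its neighbour on the X chromosome Tlr8 had no read in cDC1 and 57.02, 60.9, 57.7 and 78.6 CPM in macrophages (at least 1006-fold lower, at least 654-fold without cDC1 replicate 1). Tlr5, the flagellin receptor, also had no read in cDC1 (26.4 ± 3.44 CPM in macrophages, at least 419-fold lower, at least 272-fold without cDC1 replicate 1). The lipopeptide receptors Tlr1 and Tlr2 were 11.5-fold and 5.24-fold lower, and the lipopolysaccharide receptor Tlr4 with its helpers Cd14, Ly96 and Ticam2 was 5.03-fold, 10.1-fold, 4.89-fold and 8.37-fold lower. Tlr9 and the shared adaptor gene Myd88 did not pass (adjusted p = 0.251 and 0.0567). Myd88 passed as higher without cDC1 replicate 4 (0.0346) and without macrophage replicate 2 (0.0323).

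Of 25 tested C-type lectins and related scavengers, 18 were lower in cDC1, 2 were higher and 5 did not pass, with a median log2 fold change of -5.87 (-4.22 with genes unread in 1 group at their bound). The 2 higher were Clec9a and Ly75, the antigen-uptake receptor DEC-205 (101.1 ± 25.5 CPM in cDC1 and 0.509 ± 0.3503 CPM in macrophages, 194-fold). Lower were Clec7a, the beta-glucan receptor Dectin-1 (19.9, 39.7, 18.95 and 21.6 CPM in cDC1 and 418, 582, 503 and 362 CPM in macrophages, 18.6-fold) and the fungal receptor gene Clec4n (495-fold). Colec12 (85.4-fold), Mgl2 (187-fold), Clec4f (at least 538-fold, at least 349.7-fold without cDC1 replicate 1) and the DCIR relative Clec4a3 (491-fold), one of several near copies whose reads counting may split, were lower too. Clec12a, a receptor of uric acid crystals, did not pass (299.6 ± 13.8 CPM in cDC1 and 261 ± 47.4 CPM in macrophages, adjusted p = 0.209), but passed as higher without macrophage replicate 2 (0.0434). Of 10 tested Fc receptor genes, 7 were lower and 2 higher in cDC1. The activating receptor gene Fcgr3 had 0.1202, 7.2998, 5.36 and 4.78 CPM in cDC1 and 828, 1060.1, 871 and 725 CPM in macrophages (208-fold) and Fcgr4 was 17.4-fold lower, while the inhibitory Fcgr2b had 154, 143, 140.4 and 168 CPM in cDC1 and 648, 781, 640.4 and 563 CPM in macrophages (4.35-fold lower). Higher in cDC1 were the Fc receptor-like genes Fcrl1 (11.4-fold) and Fcrla (97.2 ± 21.5 CPM in cDC1 and 0.0968 ± 0.136 CPM in macrophages, 898-fold, 3111-fold by summed reads without macrophage replicate 3). Both are also known from B cells. Summed B cell markers are given with the depth of the libraries, and the part of B cells in these differences was not tested.

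Complement genes were mostly lower in cDC1. Of 22 tested complement genes, 17 were lower in cDC1, 2 were higher and 3 did not pass, with a median log2 fold change of -5.28. The C1q genes lie side by side on chromosome 4, with C1qa at 136895917 to 136898803 (minus strand), C1qc at 136889804 to 136893065 (minus strand) and C1qb at 136880129 to 136886187 (minus strand) (GRCm38, GENCODE M21). C1qa had 3.67, 5.02, 1.79 and 5.56 CPM in cDC1 and 5009, 6667, 5159 and 4233 CPM in macrophages (1314-fold, adjusted p = 2.54e-16), and C1qb and C1qc were 1004-fold and 1269-fold lower. Per kilobase of exon the mean levels in macrophages were 5064, 3868 and 2479 CPM for C1qa, C1qb and C1qc. The classical pathway gene C4b and the central component C3 were 247-fold and 197-fold lower in cDC1 (410.2-fold without cDC1 replicate 1 for C4b, at least 448-fold without cDC1 replicate 3 for C3), and Vsig4, a receptor of C3b, 1719-fold. The anaphylatoxin receptor genes C5ar1 (0, 2.65, 0.298 and 0.292 CPM in cDC1 and 787, 886, 902 and 724 CPM in macrophages) and C3ar1 were 1101-fold and 206-fold lower (4687-fold without cDC1 replicate 2 for C5ar1). The members higher in cDC1 were the integrin chains Itgax and Itgb2 (34.3-fold and 2.93-fold), and Itgam, the partner of Itgb2 in complement receptor 3, was 18.96-fold lower.

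The genes by which dying cells are recognised and engulfed divided by receptor. Of 21 tested efferocytosis genes, 11 were lower in cDC1, 5 were higher and 5 did not pass. The TAM kinases and their bridging ligands were lower: Mertk (1.92, 1.801, 1.29 and 0 CPM in cDC1 and 32.7, 34.9, 42.3 and 40.4 CPM in macrophages), Axl (91.2, 177, 137 and 123 CPM in cDC1 and 1219.8, 1073, 1077 and 1034 CPM in macrophages, 8.35-fold), Gas6 (81.9-fold) and Pros1 (9.73-fold). The scavenger receptor gene Stab1, the integrin gene Itgb5 and Lrp1 were 919-fold, 54.5-fold and 16.6-fold lower. Higher in cDC1 beside Timd4 were Cd36, a receptor of oxidised lipids and dead cells (1161, 1415, 1351 and 1316 CPM in cDC1 and 259, 403, 376 and 305 CPM in macrophages, 3.904-fold, adjusted p = 1.11e-07) and the phospholipid-binding Anxa1 (8.37-fold). Havcr2, which codes for TIM-3, had 183, 245, 243 and 219 CPM in cDC1 and 16.9, 6.57, 15.9 and 17.4 CPM in macrophages (15.7-fold higher). Havcr1, which codes for TIM-1, was also higher and had no read in macrophages (10.8 ± 4.21 CPM in cDC1, at least 138-fold). Elmo1, which couples engulfment receptors to Rac, did not pass (142 ± 10.97 CPM in cDC1 and 136 ± 41.3 CPM in macrophages, adjusted p = 0.792).

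Lysosomal genes were mostly lower in cDC1. Of 34 tested members, 28 were lower, 3 higher and 3 did not pass. The cathepsin genes Ctsa, Ctsb, Ctsc, Ctsd and Ctsl were 17.1-fold, 8.94-fold, 7.11-fold, 18.9-fold and 21.5-fold lower, and the membrane proteins Lamp1 and Lamp2 8.69-fold and 7.32-fold. Ctsd had 43.3, 42.8, 34.4 and 31.4 CPM in cDC1 and 617, 626, 857 and 775 CPM in macrophages. Higher were Psap, the precursor of the saposins (11287, 15593, 13806 and 11467 CPM in cDC1 and 4696, 3931, 3987 and 3748 CPM in macrophages, 3.19-fold, adjusted p = 6.8e-10) and Ctse (3.69-fold). Cst3, whose product inhibits cathepsins, had 25806, 23161, 22211 and 20623 CPM in cDC1 and 5893, 7299.7, 5128 and 4577 CPM in macrophages (4.01-fold higher). Per kilobase of exon Cst3 averaged 18128 CPM in cDC1 and 4522 CPM in macrophages.

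Of 19 tested heme and iron genes, 18 were lower in cDC1, none was higher, and Bach1 did not pass (adjusted p = 0.567). Slc40a1, the iron exporter ferroportin, had no read in cDC1 and 123, 155, 246 and 119 CPM in macrophages (at least 2549-fold lower, at least 1657-fold without cDC1 replicate 1). Hmox1, the heme-degrading oxygenase, had 29.6, 41.1, 17.2 and 33.3 CPM in cDC1 and 481, 478, 393 and 426 CPM in macrophages (14.7-fold), the hemoglobin scavenger receptor gene Cd163 was 70.8-fold lower, and Blvrb, a biliverdin reductase, 74.2-fold. The transferrin gene Trf and the ferritin heavy chain gene Fth1 were 4.59-fold and 1.89-fold lower. Of 20 tested lipid uptake and cholesterol efflux genes, 12 were lower, 1 (Cd36) was higher and 7 did not pass. Apoe, the lipid carrier, had 32.9, 25.1, 13.99 and 22.8 CPM in cDC1 and 23842, 19289, 15363 and 20955 CPM in macrophages. The phospholipid transfer gene Pltp and the cholesterol exporter gene Abca1 were 275-fold and 76.5-fold lower. Fabp4, also an endothelial marker, did not pass (31.9 ± 26.7 CPM in cDC1 and 17.7 ± 4.09 CPM in macrophages).

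Sterol synthesis genes were mostly higher in cDC1. Of 22 tested members, 16 were higher in cDC1, 2 were lower and 4 did not pass, with a median log2 fold change of 1.11. Srebf2, the transcription factor of the pathway, had 535, 475, 525 and 471 CPM in cDC1 and 177, 134, 139.7 and 147 CPM in macrophages (3.36-fold, adjusted p = 7.24e-13). Every cDC1 library lay above every macrophage library for Srebf2. Fdps, Sqle, Hmgcs1 and Cyp51 were 3.34-fold, 2.84-fold, 2.68-fold and 2.42-fold higher. Dhcr7, which makes cholesterol from its immediate precursor, was 1.98-fold lower (adjusted p = 1.49e-06), and Ebp was 1.35-fold lower (adjusted p = 0.0255) but did not pass without any of cDC1 replicate 2 (0.0625), cDC1 replicate 3 (0.0599), cDC1 replicate 4 (0.134), macrophage replicate 2 (0.0985) or macrophage replicate 3 (0.0676), nor within replicates 1 and 4 (adjusted p = 0.652).

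The chemokine transcripts of the populations differed in kind. Of 22 tested chemokine genes, 4 were higher in cDC1, 15 lower and 3 did not pass. Higher were Ccl17 and Ccl22, Ccl5 (39.4, 96.03, 108 and 21.8 CPM in cDC1 and 2.57, 3.92, 4.82 and 3.496 CPM in macrophages, 17.8-fold) and Cxcl9, a ligand of CXCR3 on T cells (51.01, 113, 69.5 and 30.998 CPM in cDC1 and 3.05, 6.18, 5.298 and 3.21 CPM in macrophages, 14.9-fold). Ccl22, Ccl5 and Cxcl9 were higher in cDC1 replicates 2 and 3 than in 1 and 4, as Ccr7 was. The monocyte attractants Ccl2 and Ccl7 were 11.8-fold and 20.1-fold lower in cDC1, the CCR1 ligand gene Ccl9 38.96-fold, the neutrophil attractant Cxcl2 145-fold, and the platelet factor gene Pf4 1252-fold (2876-fold without cDC1 replicate 4). Cxcl2 had 1.202, 3.22, 1.19 and 2.24 CPM in cDC1 and 234, 383, 249.9 and 247 CPM in macrophages. Cxcl14 had 3 reads in cDC1 and 27.6 ± 3.45 CPM in macrophages (lower 437-fold by summed reads with an exact 95% interval of 149 to 2122, and 1028-fold without cDC1 replicate 4). Cxcl16 (404 ± 77.5 CPM in cDC1 and 549 ± 52.3 CPM in macrophages, adjusted p = 0.0599), Cxcl10 and Cxcl12 did not pass, and Cxcl16 passed as lower without cDC1 replicate 2 (0.0285).

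Of 21 tested chemoattractant receptors, 7 were higher in cDC1, 12 were lower and 2 did not pass. Beside Xcr1, Ccr2 and Ccr7, cDC1 were higher in Cxcr3 (242, 183, 205 and 219 CPM in cDC1 and 3.43, 7.45, 9.54 and 2.62 CPM in macrophages, 36.8-fold). They were also higher in Ltb4r1, a leukotriene B4 receptor (184 ± 14.97 CPM in cDC1 and 4.06 ± 2.803 CPM in macrophages, 45.1-fold), and in the low Ccr6 and Ccr9 (14.2-fold and 10.7-fold, at least 23.1-fold without macrophage replicate 4 for Ccr6 and 25.8-fold without macrophage replicate 3 for Ccr9). Per kilobase of exon the mean levels in cDC1 were 234 CPM for Ccr2, 219 CPM for Ccr7, 204 CPM for Xcr1, 132 CPM for Ltb4r1 and 123 CPM for Cxcr3. Ccr1, a receptor of inflammatory chemokines, had 1.92, 4.93, 2.38 and 1.36 CPM in cDC1 and 151, 196, 274 and 154 CPM in macrophages (73.8-fold lower). The formyl peptide receptor genes Fpr1 and Fpr2 had 0 and 2 reads in cDC1 and 14.2 ± 3.91 and 13.5 ± 2.31 CPM in macrophages. S1pr1, which lets lymphocytes leave tissues, was 7.86-fold lower (12.4-fold without cDC1 replicate 2), and Cxcr4 did not pass (59.8 ± 6.23 CPM in cDC1 and 60.01 ± 9.11 CPM in macrophages, adjusted p = 0.983).

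Of 27 tested growth factor and cytokine receptors, 5 were higher in cDC1, 14 lower and 8 did not pass. Kit, the stem cell factor receptor, had 166, 250.2, 277 and 260.5 CPM in cDC1 and 0, 3.73, 0.0963 and 0 CPM in macrophages, where 1 library held nearly all reads. The fitted fold was 249. Without macrophage replicate 2 it was 7132-fold by summed reads, a ratio that rests on very few macrophage reads. The TGF-beta receptor genes Tgfbr1 and Tgfbr2 were 5.23-fold and 8.47-fold lower in cDC1, and Tgfbr2 had 65.9, 87.6, 104 and 119 CPM in cDC1 and 799.6, 769, 793 and 828 CPM in macrophages. The interleukin 10 receptor chains Il10ra and Il10rb were 2.39-fold and 3.797-fold lower. The GM-CSF receptor chain Csf2ra did not pass (255, 362, 326 and 338 CPM in cDC1 and 344, 262, 234 and 301 CPM in macrophages, adjusted p = 0.325, and 0.0324 as higher within replicates 2 and 3) and its partner Csf2rb was 1.54-fold higher. Il15ra, which presents interleukin 15 to T and NK cells, was 3.36-fold higher and did not pass within replicates 1 and 4 (adjusted p = 0.157). Of 24 tested growth factor and matrix genes, none was higher in cDC1, 19 were lower and 5 did not pass. Igf1, a growth factor of resident macrophages, was 169-fold lower (0.769 ± 1.08 CPM in cDC1 and 154 ± 21.95 CPM in macrophages, 568-fold without cDC1 replicate 1), and the urokinase gene Plau 8.32-fold. Pdgfc was unread in cDC1 (30.5 ± 2.84 CPM in macrophages, at least 483-fold, at least 314-fold without cDC1 replicate 1). The collagenase gene Mmp13 and the inhibitor gene Timp2 were 1189-fold and 43.5-fold lower (4563-fold by summed reads without cDC1 replicate 2 for Mmp13). Fn1, coding for fibronectin, had 0, 3.602, 3.18 and 7.21 CPM in cDC1 and 34.5, 12.3, 35.8 and 176 CPM in macrophages, where replicate 4 was far above the others (19.6-fold lower, 31.5-fold without cDC1 replicate 4 and 8.397-fold without macrophage replicate 4). Spp1, coding for osteopontin, did not pass (236 ± 11.5 CPM in cDC1 and 110.1 ± 93.3 CPM in macrophages, log2 fold change 1.10, adjusted p = 0.0571). It passed as higher without macrophage replicate 3 (log2 fold change 1.86, adjusted p = 0.00141) and within replicates 1 and 4 (1.76, adjusted p = 0.0297).

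Of 24 tested integrin and adhesion genes, 13 were higher in cDC1, 5 were lower and 6 did not pass. Itgb7, the partner of CD103 in the E-cadherin receptor, had 1448, 1331, 1446 and 1425 CPM in cDC1 and 8.295, 14.7, 12.2 and 14.6 CPM in macrophages (113-fold, adjusted p = 4.48e-14). Epcam, an epithelial and Langerhans cell adhesion molecule, had 26.9, 34.5, 49.4 and 44.7 CPM in cDC1 and 1 read in macrophages (1539.6-fold by summed reads with an exact 95% interval of 276 to 60845, and at least 383-fold without macrophage replicate 1). Selplg, the selectin ligand PSGL-1, and Itgal were 2.804-fold and 2.56-fold higher. Itga9 was lower in cDC1 (0.439 ± 0.338 CPM in cDC1 and 168 ± 21.3 CPM in macrophages, adjusted p = 4.48e-14), and Itga6 was 16.5-fold lower. Pecam1 (15.7, 43.7, 18.5 and 10.2 CPM in cDC1 and 5.15, 4.51, 1.25 and 13.99 CPM in macrophages, 3.53-fold higher), Jam3 (6.72-fold, adjusted p = 0.0454) and the cDC2 marker Esam (4.35-fold, adjusted p = 0.0194) are also endothelial genes. Pecam1 did not pass without cDC1 replicate 2 (0.0575) and was 5.999-fold without macrophage replicate 4, Jam3 did not pass without any of cDC1 replicate 1 (0.0532), cDC1 replicate 2 (0.218), macrophage replicate 1 (0.107), macrophage replicate 2 (0.0846) or macrophage replicate 4 (0.0774), and Esam did not pass without cDC1 replicate 2 (0.138) or macrophage replicate 1 (0.0558). Pecam1 was highest in cDC1 replicate 2, the library with the most mural and endothelial transcripts (348 and 309.5 CPM), and the part of those cells in these 3 differences was not tested. Icam1 and Itgb1 did not pass (adjusted p = 0.985 and 0.54).

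Cell cycle genes leaned toward cDC1, most of them without passing. Of 32 tested members, 10 were higher in cDC1 (31.25%, against 20.9% of all tested genes), 3 of them by at least 2-fold. None was lower, against 21.9% of all tested genes, and 22 did not pass. The median log2 fold change was 0.35, against -0.02 over all tested genes. The members called act in the G1 and S phases, beside the mitotic cyclin gene Ccnb2 (1.75-fold). Rrm2, a subunit of ribonucleotide reductase, had 41.1, 85.99, 91.3 and 82.8 CPM in cDC1 and 12.3, 12.9, 28.3 and 16.3 CPM in macrophages (4.301-fold, adjusted p = 3.97e-06), the cyclin E gene Ccne1 was 8.73-fold higher (13.9-fold without macrophage replicate 3), and the replicative helicase gene Mcm5 1.702-fold. Tyms, which makes thymidylate, was 1.76-fold higher and did not pass within replicates 1 and 4 (adjusted p = 0.135). The mitotic genes Top2a (58.8 ± 26.2 CPM in cDC1 and 55.5 ± 33.97 CPM in macrophages, adjusted p = 0.905), Cdk1, Plk1 and Aurkb and the proliferation marker Mki67 (11.1, 5.404, 4.37 and 4.19 CPM in cDC1 and 31.3, 0, 9.34 and 37.98 CPM in macrophages) did not pass. Mki67 passed as lower without macrophage replicate 2 (log2 fold change -2.05, adjusted p = 0.0165).

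Of 25 tested glycolysis and hypoxia genes, 12 were higher in cDC1, 6 lower and 7 did not pass. Pfkp, a phosphofructokinase, was 8.53-fold higher (464 ± 39.6 CPM in cDC1 and 54.4 ± 8.63 CPM in macrophages) and Aldoc 14.2-fold. Ldha had 1738, 1502, 1498 and 1470.4 CPM in cDC1 and 384, 585, 529 and 418 CPM in macrophages (3.24-fold). The hexokinase genes Hk2 and Hk3 and the glucose transporter gene Slc2a3 were 1.85-fold, 2.12-fold and 2.63-fold lower, Hk2 without passing within replicates 2 and 3 (adjusted p = 0.262), while the transporter gene Slc2a1 was 1.96-fold higher. Of 32 tested oxidative phosphorylation genes, 13 were higher, 2 lower and 17 did not pass. Cytochrome c (Cycs) differed most, with 363, 354, 301 and 266 CPM in cDC1 and 77.7, 94.6, 73.4 and 64.3 CPM in macrophages (4.14-fold, adjusted p = 1.24e-12). The ATP synthase genes Atp5b and Atp5c1 and the complex III gene Uqcrfs1 were 1.85-fold, 1.97-fold and 2.09-fold higher. The lower ones were Ndufs7 (1.37-fold), which did not pass within replicates 1 and 4 (adjusted p = 0.199), and Sdhc (1.43-fold), which did not pass there (adjusted p = 0.474) nor without macrophage replicate 2 (0.0849).

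Of 28 tested type I interferon response genes, 6 were higher in cDC1 (21.4%, against 20.9% of all tested genes), 10 lower (35.7%, against 21.9%) and 12 did not pass. Stat2, a signal transducer of interferons, had 87.7, 99.1, 135 and 105.4 CPM in cDC1 and 57.7, 48.9, 62.6 and 77.7 CPM in macrophages. It was 1.73-fold higher and did not pass within replicates 1 and 4 (adjusted p = 0.225), and Trim30a was 1.54-fold higher and did not pass within replicates 2 and 3 (adjusted p = 0.192). Rtp4 (41.5-fold), the oligoadenylate synthetase family genes Oasl2 (0.961, 11.4, 4.56 and 7.51 CPM in cDC1 and 152, 149, 137 and 165 CPM in macrophages, 25.3-fold), Oas1a (3.42-fold) and Oas2 (23.7-fold) and the RNA sensor gene Ddx58, coding for RIG-I (7.28-fold), were lower. Irf7, Irf9, Isg15 and Usp18 did not pass. Of 24 tested immediate early and heat shock genes, which also respond to tissue digestion, 3 were higher in cDC1, 11 lower and 10 did not pass. Egr1 had 705, 528, 356 and 804 CPM in cDC1 and 3111, 1708, 1019.96 and 2055 CPM in macrophages (3.299-fold lower, adjusted p = 0.00017). Jun, Fosl2, Dusp1 and Fos were 2.24-fold, 2.39-fold, 2.499-fold and 1.62-fold lower, a call that Fos lost without macrophage replicate 1 (0.0598), and Ier3 was 13.8-fold lower. Egr3 was 8.62-fold higher (51.4 ± 11.3 CPM in cDC1 and 5.96 ± 3.38 CPM in macrophages), and the chaperone gene Hspa8 1.44-fold, which did not pass within replicates 1 and 4 (adjusted p = 0.215). Hspa1a and Hspa1b, near copies of each other, varied widely and did not pass. With replicate number added to the model, Hspa1a passed as lower in cDC1 (log2 fold change -0.797, adjusted p = 1.45e-05). Among 16 genes shared by leukocytes, Ptprc, which codes for CD45, was 1.87-fold higher (641 ± 91.4 CPM in cDC1 and 343 ± 26.4 CPM in macrophages), and the glycoprotein gene Cd52 was 9.28-fold higher. The signalling adaptor genes Tyrobp and Fcer1g and the GTPase gene Rac2 were 3.58-fold, 4.62-fold and 1.41-fold lower. Rac2 did not pass within replicates 2 and 3 (adjusted p = 0.0984). In all, 8 of the 16 were higher, 3 lower and 5 did not pass.

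Levels in the other SS populations show where the pair stood in the myeloid range of the heart. Xcr1 averaged 909.9 ± 104 CPM in cDC1, 3.53 ± 1.81 CPM in cDC2, 1.75 ± 1.41 CPM in moDCs and 1.47 ± 0.717 CPM in macrophages, so the ranges outside cDC1 overlapped. Irf8 averaged 3786 ± 337 CPM in cDC1, 214 ± 43.8 CPM in cDC2, 456 ± 32.96 CPM in moDCs and 466 ± 54.8 CPM in macrophages, and moDCs and macrophages overlapped. Flt3 was lower at each step of the order cDC1, cDC2, moDCs and macrophages, at 298 ± 28.7, 71.1 ± 15.1, 15.95 ± 6.31 and 0.601 ± 0.404 CPM, with no overlap between neighbours. Csf1r averaged 64.1 ± 12.8 CPM in cDC1, 1843 ± 155 CPM in cDC2, 3735 ± 646 CPM in moDCs and 5984 ± 1081 CPM in macrophages, also without overlap. Apoe did the same at 23.7 ± 7.79, 1196 ± 304, 8645 ± 1718 and 19863 ± 3540.5 CPM in cDC1, cDC2, moDCs and macrophages. Ccr2 did not follow this order, at 1584 ± 205, 1838 ± 281, 1542 ± 206 and 420.2 ± 63.4 CPM in the same order, and its first 3 groups overlapped. Timd4 and Cd36 were highest in cDC1, with 220.1 ± 35.7, 28.5 ± 14.8, 19.6 ± 6.67 and 70.9 ± 12.2 CPM for Timd4 and 1311 ± 108, 293 ± 96.95, 428 ± 92.9 and 336 ± 65.7 CPM for Cd36 in that order. Sirpa was near 0 in cDC1 alone, at 1.31 ± 1.26, 827 ± 76.7, 1175 ± 38.8 and 1234 ± 61.1 CPM. Lyve1 stood out in macrophages, at 0.627 ± 0.516, 0.535 ± 0.381, 3.42 ± 1.48 and 90.3 ± 22.96 CPM. These levels are descriptions with no test.

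**Figure D4:**
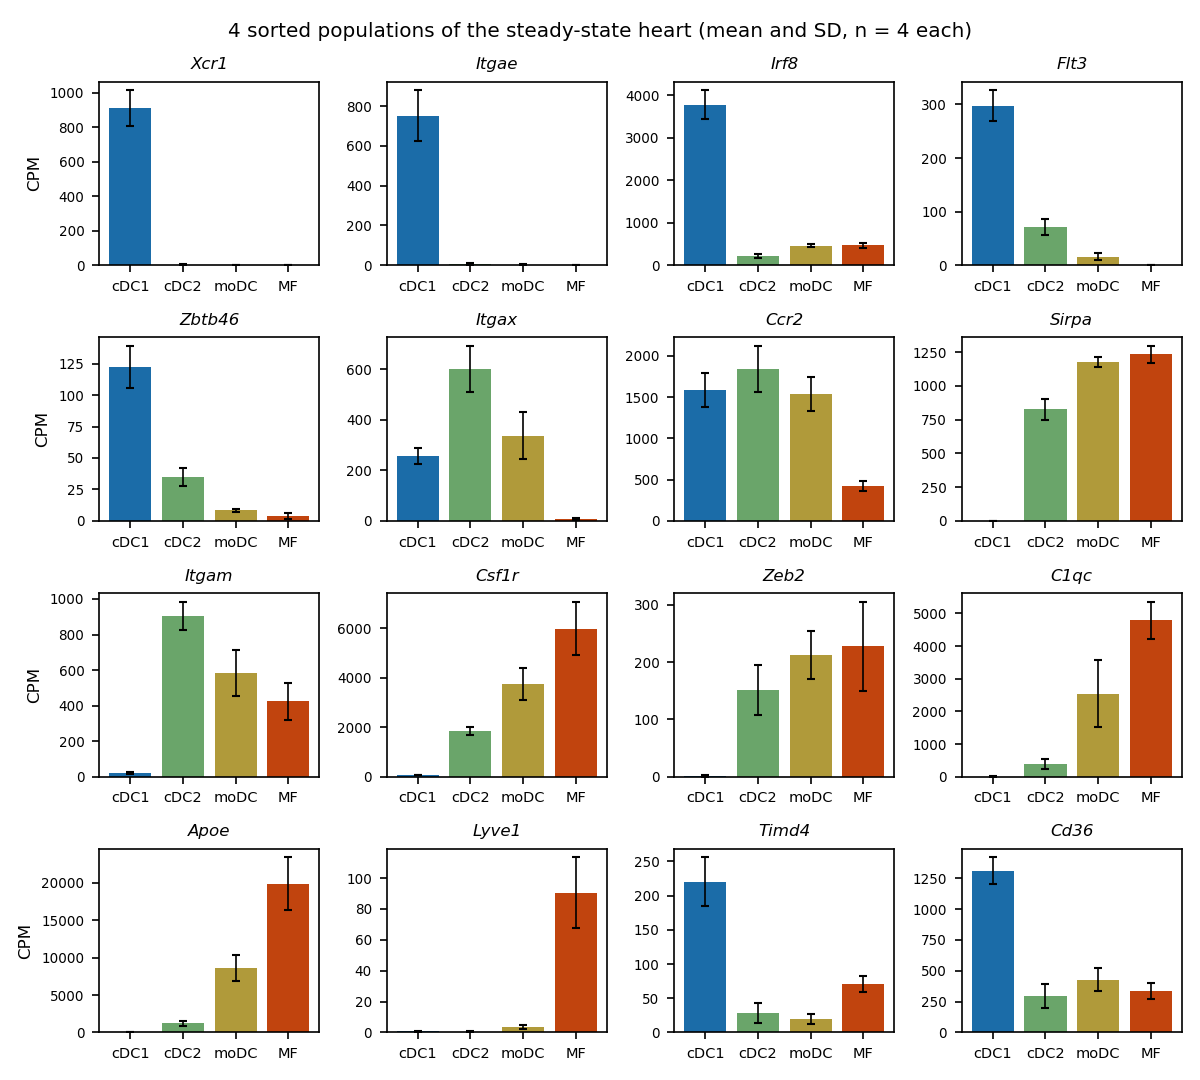
Bars are mean CPM and whiskers SD of 4 libraries each for 16 genes in SS cDC1, cDC2, moDCs and CD11c-negative macrophages (MF), each panel on its own linear axis from 0. Flt3 and Zbtb46 step down from cDC1 to macrophages, Csf1r, C1qc and Apoe step up, and Sirpa and Zeb2 are near 0 in cDC1 alone.

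The same comparison in infarcted hearts used 4 other cDC1 and 4 other macrophage libraries. There 5924 genes were called (45.4%), 2734 higher (21%) and 3190 lower (24.5%) in cDC1. Of the 2720 genes higher in SS cDC1, 2066 (76.0%) were called higher in MI cDC1 as well and 39 were called lower. Of the 2860 genes lower in SS cDC1, 2262 (79.1%) were called lower again and 5 higher. The difference between the 2 comparisons, tested as an interaction, was called for 527 genes (4.04%), 106 shifted toward cDC1 after MI (0.813%) and 421 toward macrophages (3.23%). The count was 223 with only replicates 1 and 4 of SS cDC1 and SS macrophages, and 549 with only their replicates 2 and 3. The infarction cannot be told apart from other ways in which SS and MI preparations differed.

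Ccr2 did not pass between the MI groups (adjusted p = 0.35). MI cDC1 had 2367 ± 199.7 CPM and MI macrophages 2125 ± 248 CPM, against 1584 ± 205 CPM in SS cDC1 and 420.2 ± 63.4 CPM in SS macrophages (interaction -1.76 on the log2 scale, adjusted p = 1.76e-07). Itgax, the CD11c gene, remained higher in cDC1 with a smaller gap (191 ± 14.8 CPM in MI cDC1 and 40.9 ± 15.8 CPM in MI macrophages, interaction -2.88, adjusted p = 1.26e-06). Havcr2, Anxa1 and the hypoxia-induced gene Ndrg1 narrowed as well (interactions -2.07, -1.67 and -2.46, adjusted p = 3.16e-05, 5.2e-06 and 1.26e-06). For Ndrg1 the MI groups lay at 96.3 ± 11.9 CPM in cDC1 and 87.8 ± 9.46 CPM in macrophages, and the SS groups at 69.8 ± 21.6 CPM in cDC1 and 11.5 ± 3.13 CPM in macrophages. Spp1 had 155 ± 7.87 CPM in MI cDC1 and 893 ± 199.8 CPM in MI macrophages (interaction -3.63, adjusted p = 0.00131). The gap of Tnf widened, with 9.05 ± 2.598 CPM in MI cDC1 and 125 ± 22.8 CPM in MI macrophages (interaction -2.10, adjusted p = 4.37e-05). The gap of H2-Ob and Batf3 grew toward cDC1, with lower levels in MI macrophages. H2-Ob had 217 ± 16.99 CPM in MI cDC1 and 10.1 ± 2.57 CPM in MI macrophages (interaction 1.51, adjusted p = 0.000375). Batf3 had 59.9 ± 10.2 and 8.87 ± 1.697 CPM (interaction 1.23, adjusted p = 0.00621). Cd207, which did not pass between the SS groups, was higher in MI cDC1 (97.05 ± 19.3 CPM in MI cDC1 and 15.3 ± 8.28 CPM in MI macrophages, interaction 3.03, adjusted p = 0.000467). Xcr1, Csf1r, Timd4 and Ccr7 kept their direction, and their interactions did not pass (adjusted p = 0.248, 0.106, 0.603 and 0.961). Genes called in opposite directions included Dusp2, a phosphatase of MAP kinases (interaction -1.84, adjusted p = 8.56e-07), Ly6e (-3.23, adjusted p = 0.000119), whose SS call did not pass without cDC1 replicate 2 (0.0536), and Lpar1, a lysophosphatidic acid receptor, toward cDC1 (3.38, adjusted p = 8.24e-06). Also among them were the smooth muscle genes Acta2 and Tagln. Acta2 had 96.98 ± 59.6 CPM in SS cDC1 and 7.38 ± 6.799 CPM in SS macrophages. It had 0.3204 ± 0.641 CPM in MI cDC1 and 7.33 ± 9.39 CPM in MI macrophages. The part of mural cells in that change was not tested.

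**Figure D5:**
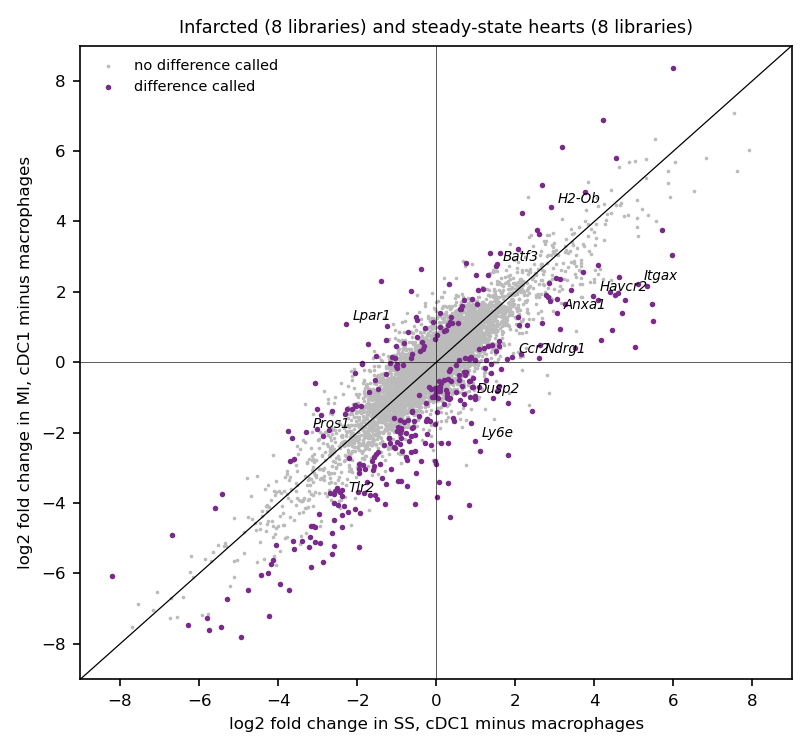
Points are tested genes that averaged 1 CPM or more in each of the 4 groups, 9926 in all. The x axis is the log2 fold change in SS and the y axis that in MI, both cDC1 minus macrophages, and the diagonal marks equal values. Genes beyond the limits of the axes are not drawn but are included in the counts. Purple marks the 346 of them whose difference between MI and SS was called, 250 below the diagonal and 96 above it.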

How the data were processed

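The authors deposited 1 table of raw read counts per gene for each of 31 libraries of cells sorted from Balb/c mouse hearts after Liberase and DNase digestion. Per the labels' protocols, SMART-Seq v4 amplification started from 4 ng of RNA, and libraries were sequenced as single reads of 75 nt on 2 NextSeq500 flow cells. The submitters' processing notes name FastQC 0.11.4, Trimmomatic 0.35, TopHat2 2.1.0, SAMtools 0.1.18 and mm10, and the sources used here give no tool, gene models or strand setting for the counting. Without known strand use, reads of overlapping or antisense genes cannot be told apart, and without molecular identifiers intervals and bounds cover counting error only. The 5 summary lines that name no gene were left out of library sizes, and reads in no feature made up 8.391% to 16.91% of the 8 libraries.

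Of 24421 genes, 13039 passed filterByExpr with a minimum count of 10. edgeR 4.0.16 (R 4.3.3, limma 3.58.1) was fitted to all 31 samples as 8 group means, with TMM scaling and robust quasi-likelihood dispersion, so that all groups share the estimate of spread. The contrasts were SS cDC1 minus SS macrophages, the same in MI, and the difference between them, each adjusted by Benjamini-Hochberg over all tested genes at 0.05. Folds are fitted values; where 1 group had no read they are bounds against 3 reads over the group, and with 1 to 3 reads ratios of summed counts. The design text speaks of independent replicates without saying whether hearts were pooled, so p-values measure the spread between these samples. No pair of libraries within the SS cDC1 or the SS macrophage group agreed within sampling noise (chi-square per degree of freedom 14.25 to 51.89).

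Named genes were 28 identity genes, the 15 largest changes in each direction with at least 10 CPM and no overlap, up to 3 changed members per list and direction by adjusted p, the 5 most abundant in each direction, and list members; a few of them are not reported here. The comparison and its 31 gene lists and 11 marker lists of other cells were chosen with earlier results of these data known, and 697 of 698 list symbols were found. Positions are from GENCODE M21 on GRCm38, where 12556 tested genes matched by symbol, and promoter windows from RefSeq on GRCm38.p6. Alternatives were DESeq2 1.42.0, other scalings, no filter, fewer libraries, subsets by replicate number, a replicate block and leaving out each library. The test was checked on simulated data.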

Additional observations from a re-analysis of the deposited data

Results flagged for a closer look

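In some named genes 1 library stood apart from the other 3 of its group by Dixon's criterion, which picks out about 1 in 20 groups by chance. Both groups of 303 named genes were looked at where the group held at least 40 reads, and 19 flags were raised. SS cDC1 replicate 1 was the lowest for Itgb1, at 418 CPM beside 597 to 633 CPM in the others, the highest for Ldha, at 1738 CPM beside 1470.4 to 1502 CPM in the others and the lowest for Rrm2, at 41.1 CPM beside 82.8 to 91.3 CPM in the others. SS cDC1 replicate 2 was the highest for Cd14, at 412 CPM beside 170.4 to 210.5 CPM in the others, the highest for Cebpb, at 71.4 CPM beside 26.2 to 31.9 CPM in the others, the highest for Clec7a, at 39.7 CPM beside 18.95 to 21.6 CPM in the others and the highest for Hk3, at 53.3 CPM beside 37.1 to 39.5 CPM in the others. SS cDC1 replicate 3 was the highest for Tap1, at 646 CPM beside 550.3 to 567 CPM in the others. SS cDC1 replicate 4 was the highest for Irf9, at 221 CPM beside 183 to 189.6 CPM in the others. SS macrophage replicate 1 was the highest for Fscn1, at 29.8 CPM beside 22.9 to 23.1 CPM in the others and the highest for Selplg, at 290.4 CPM beside 228 to 237 CPM in the others. SS macrophage replicate 2 was the highest for B2m, at 2751 CPM beside 2203 to 2264 CPM in the others, the highest for Cxcl2, at 383 CPM beside 234 to 249.9 CPM in the others, the lowest for Havcr2, at 6.57 CPM beside 15.9 to 17.4 CPM in the others, the highest for Il18, at 27.1 CPM beside 15.4 to 15.8 CPM in the others and the highest for Isg15, at 26.4 CPM beside 16.1 to 16.95 CPM in the others. SS macrophage replicate 4 was the highest for Fn1, at 176 CPM beside 12.3 to 35.8 CPM in the others, the highest for Il6, at 5.83 CPM beside 1.08 to 1.64 CPM in the others and the highest for Mmp8, at 7.58 CPM beside 0 to 1.05 CPM in the others.

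For the following named genes the cDC1 minus macrophage difference itself differed between infarcted and steady-state hearts by edgeR's interaction test; the values are the MI difference minus the SS difference on the log2 scale. Among receptors and adhesion molecules, the shift was toward macrophages for Ccr2 (-1.76), Itgax (-2.88), Havcr2 (-2.07), Itgam (-1.74), Ltb4r1 (-4.33), Adgre1 (-1.85), Axl (-2.04), Mertk (-4.16), C3ar1 (-1.77), Ccr1 (-2.20), Cxcr4 (-0.80), S1pr1 (-4.79), Tlr2 (-1.41), Tgfbr1 (-1.24), Fcrl1 (-3.10), Fcgr4 (-1.49), Clec10a (-2.39) and Stab1 (-4.43). Among cytokines, chemokines, growth factors and matrix, the shift was toward macrophages for Tnf (-2.10), Osm (-2.77), Il1rn (-3.02), Ccl5 (-3.52), Ccl9 (-1.44), Cxcl10 (-1.53), Fn1 (-5.29), Spp1 (-3.63), Timp2 (-2.09) and Plau (-1.63). Among lysosomal, lipid and iron genes, the shift was toward macrophages for Abca1 (-3.80), Pltp (-3.001), Ctsd (-2.96), Ctsl (-1.61), Cd68 (-0.50), Fth1 (-0.72), Trf (-0.51) and Cybb (-1.18). Among genes also expressed by mural or endothelial cells, the shift was toward macrophages for Acta2 (-8.15), Tagln (-5.96), Pecam1 (-4.45) and Fabp4 (-5.000). Summed markers of those cells in SS libraries are given with the depth of the libraries, and their part was not tested. It was toward macrophages as well for Anxa1 (-1.67), Ccne1 (-2.19), Dusp2 (-1.84), Ly6e (-3.23) and Ndrg1 (-2.46), and toward cDC1 for Batf3 (1.23), Cbfa2t3 (1.04), Cd207 (3.03), Cd86 (0.93), H2-Ob (1.51), Itgal (1.75), Lamp2 (0.78), Lpar1 (3.38), Myd88 (0.79), Pros1 (1.30) and Tlr11 (2.37). For C4b (-6.996), Gas6 (-8.91) and Jam3 (-8.84), which had no read in MI cDC1, the value depends on the prior count of the model and is no bound. Adjusted p ran between 1.02e-07 and 0.0474.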

How the results depend on the processing

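Counts of genes higher and lower in cDC1 were 2720 and 2860 as reported, 2675 and 3090 with DESeq2, 2641 and 2958 with RLE size factors, 2744 and 2846 with upper-quartile factors, 2552 and 3000 with library totals alone, 2599 and 2783 without the filter on low counts, 2385 and 2286 with the 8 compared libraries alone, and 2424 and 2536 with the 16 SS libraries. Leaving out 1 of the 8 libraries gave 2413 to 2632 higher and 2636 to 2713 lower, 3046 to 3210 changed at least 2-fold, and 417 to 572 interactions. Leaving out 1 of the MI cDC1 or macrophage libraries gave 403 to 512 interactions. The interaction count was 223 with only replicates 1 and 4 of SS cDC1 and SS macrophages, against 527 as reported. With only their replicates 2 and 3 it was 549, and the cause of this spread was not tested. DESeq2 gave 781. The scalings moved the median of all genes by -0.0455 to 0.00327 on the log2 scale, and none of the 267 named genes that passed changed direction under any setting run. Of the other named genes, 16 changed sign under at least 1 setting, without passing there or as reported. Of named genes tested, Cxcl16 passed with DESeq2, RLE factors and library totals (adjusted p = 0.0365, 0.0491 and 0.0306), Myd88 with upper-quartile factors (0.0468), and Jam3 did not pass with library totals or without the filter (0.0515 and 0.0533). With the 8 libraries alone, Ebp, Il6, Sdhc and Ticam1 did not pass (0.142, 0.121, 0.0541 and 0.0585), while Cxcl16 and Myd88 did (0.0396 and 0.0307). With the 16 SS libraries, Ebp and Il6 did not pass (0.066 and 0.0636) and Myd88 did (0.0406). The labels number replicates 1 to 4 in both groups. Deviations from the group means correlated at 0.00372, -0.0178, 0.0875 and 0.0373 between libraries of the same number, and not every library correlated best with its own number. The reported fit did not take the numbers as pairs. Correlations over all genes cannot show whether single genes vary together by number. Reads in no feature were nonetheless higher in numbers 1 and 4 than in 2 and 3 of all SS populations (11.57% to 16.91% against 6.419% to 9.26%). Whether libraries of the same number shared a preparation was not tested. With the number as a replicate block, 2825 genes were higher and 2911 lower, and 616 interactions were called. Hspa1a, Myd88 and Spp1 passed with it (adjusted p = 1.45e-05, 0.0122 and 4.60e-04, against 0.125, 0.0567 and 0.0571 as reported) and Jam3 did not (0.104). In simulated data for this comparison, 64.2% of 67 genes changed 2-fold, 94% of 67 changed 4-fold and 100% of 66 changed 8-fold were recovered among 12701 genes, with 6 false calls. The changed genes there were few, well read and as many higher as lower, and all others had equal means. In the data 42.8% of genes were called, so these figures do not cover genes near 0 or so wide a difference.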
